A study of Mus musculus with 17 samples.

Results

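The 10 genes described here are the receptor for colony-stimulating factor 1 (Csf1r), its ligands Csf1 and Il34, and 7 genes widely used to identify macrophages in tissue (Adgre1, Cd68, Mrc1, Aif1, Trem2, Tyrobp and Cd163). They were chosen by name from a table of 35285 genes measured by bulk RNA sequencing in 17 mouse cochlea libraries, and each name matched 1 gene. The rule set no threshold on a measured value, but the list was drawn up with the levels and fold changes of these genes in these libraries known. The p-values below therefore say where each gene stood among all genes tested and are not independent evidence. All mice were wild-type male C57BL/6J aged 8 weeks. The control group (n = 3) received saline and no noise. The noise exposure (NE) group (n = 7) was exposed to 8 to 16 kHz noise at 100 dB for 2 h. The brimonidine group (n = 7) received the same noise and 3 intraperitoneal injections of 1 mg/kg brimonidine, an α2-adrenergic receptor agonist, on the day before, the day of and the day after exposure. Cochleae were taken 2 days after exposure, and each library came from a single mouse. No library had brimonidine without noise.

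Macrophages live in the normal cochlea, in the lateral wall, among the spiral ganglion neurons and below the sensory epithelium, and monocytes from blood can add to them after noise. Their survival depends on the tyrosine kinase receptor encoded by Csf1r. The receptor has a pair of ligands with unrelated sequences: CSF1, which many mesenchymal and endothelial cells make, and IL-34, which is best known as a product of neurons and keratinocytes. Adgre1 encodes the surface antigen F4/80, Cd68 a lysosomal glycoprotein, Mrc1 the mannose receptor CD206, Aif1 the actin-binding protein IBA1 and Cd163 the scavenger receptor for hemoglobin bound to haptoglobin. Tyrobp encodes the adaptor DAP12, through which the lipid-sensing receptor encoded by Trem2 signals. Several of these genes are also transcribed outside macrophages, and Tyrobp is abundant in neutrophils and natural killer cells.

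RefSeq promoter sequences (GRCm38.p6), from 250 bases before to 50 bases after the annotated start, were matched for 6 of the 10 genes (Csf1, Cd68, Mrc1, Aif1, Trem2 and Cd163). They were searched on both strands for GAGGAA, the core bound by PU.1, the transcription factor required for macrophage formation. The core was found in the promoters of Cd68, Mrc1, Aif1 and Trem2, which is 4 of 6, and in 28.3% of 32851 promoters of the same length. These 4 promoters are printed along each gene's own strand, with the matches in capitals (TTCCTC where the match is on the other strand). In the Cd68 promoter, 2 matches begin at positions -225 and 30 relative to the start. The Mrc1 promoter has 3 matches, at -180, -167 and -35, the Aif1 promoter 1 match at -7 and the Trem2 promoter 1 match at -40. A match describes letters only and does not show that a factor binds there.
Cd68, chr11:69666121-69666420, minus strand: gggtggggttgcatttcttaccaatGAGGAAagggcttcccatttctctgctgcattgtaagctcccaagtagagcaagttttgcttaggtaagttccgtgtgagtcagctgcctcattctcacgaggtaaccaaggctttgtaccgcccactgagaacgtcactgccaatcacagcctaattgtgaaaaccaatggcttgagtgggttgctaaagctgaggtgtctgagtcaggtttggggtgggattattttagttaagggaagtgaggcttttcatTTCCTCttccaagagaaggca
Mrc1, chr2:14229164-14229463, plus strand: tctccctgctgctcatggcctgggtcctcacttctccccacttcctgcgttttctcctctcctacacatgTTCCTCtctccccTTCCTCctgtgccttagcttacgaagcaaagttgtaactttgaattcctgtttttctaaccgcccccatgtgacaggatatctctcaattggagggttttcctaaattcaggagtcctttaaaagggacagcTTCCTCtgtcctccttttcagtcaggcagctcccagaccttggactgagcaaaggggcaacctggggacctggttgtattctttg
Aif1, chr17:35176003-35176302, minus strand: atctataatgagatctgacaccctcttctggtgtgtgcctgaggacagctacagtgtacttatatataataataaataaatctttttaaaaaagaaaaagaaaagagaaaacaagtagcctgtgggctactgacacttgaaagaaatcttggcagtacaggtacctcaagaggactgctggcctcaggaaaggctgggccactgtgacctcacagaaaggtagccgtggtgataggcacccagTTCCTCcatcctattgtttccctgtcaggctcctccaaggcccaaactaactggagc
Trem2, chr17:48346151-48346450, plus strand: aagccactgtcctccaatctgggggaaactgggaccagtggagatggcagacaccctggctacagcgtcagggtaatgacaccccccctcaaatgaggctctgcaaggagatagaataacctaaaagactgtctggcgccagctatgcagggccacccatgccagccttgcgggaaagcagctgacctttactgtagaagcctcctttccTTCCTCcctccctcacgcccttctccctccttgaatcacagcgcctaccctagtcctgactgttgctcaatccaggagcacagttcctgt

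The libraries held 14457734 to 18288854 counted fragments, as recovered from the deposited values. The control libraries stood apart from the exposed ones. A summed list of 8 central neuron genes ranged from 198.7 to 539.1 FPKM (fragments per kilobase of exon, scaled to the library's total) in the controls and from 14.0 to 72.0 in the 14 exposed libraries, and 7 central glia genes summed to 152.7 to 307.3 and 94.0 to 152.1. Control 2 differed most: the summed level of 10 neutrophil genes was 9819 FPKM in it against 43764 and 46168 in the other controls, and 13 monocyte genes summed to 694.6 against 1972 and 2229. The part of these differences in the results below was not tested, and values without control 2 are therefore given beside the main comparisons with the controls. The labels call the cells interstitial, a type without a marker list here. Of 9 cochlear epithelium markers, 7 reached 1 FPKM in some library, and the outer hair cell motor gene Slc26a5 stayed between 0.0619 and 0.858.

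Levels are given in FPKM, which allows comparison between genes because it is per length. In all 3 groups Tyrobp was the highest of the 10 genes, with mean levels of 301.6 (control), 396.6 (NE) and 408.0 (brimonidine). Cd68 followed (57.1, 68.2 and 71.9) and then Csf1r (35.1, 41.8 and 43.3), and none of these 3 overlapped its neighbor in any group. Adgre1, Csf1, Mrc1 and Aif1 came next, with means between 5.62 and 17.4. The ranges of Adgre1 and Csf1 overlapped in the control and NE groups but not in the brimonidine group. Trem2, Il34 and Cd163 were lowest, with means between 2.14 and 4.10. Trem2 and Il34 overlapped in every group, and Il34 overlapped Cd163 in the control and NE groups but not in the brimonidine group. The receptor was thus measured at a higher level than either ligand in every library, and Csf1 at a higher level than Il34.

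**Figure D1:**
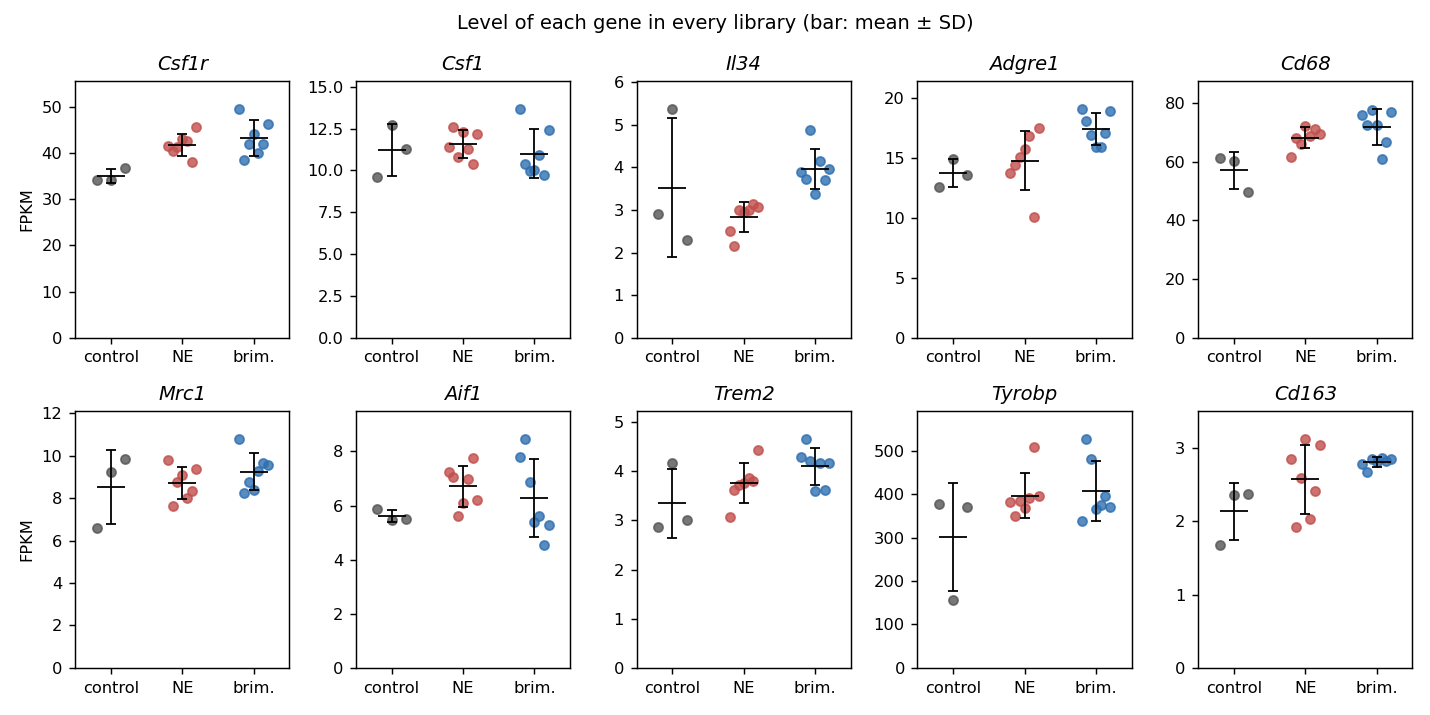
FPKM of the 10 genes (1 panel each, vertical axes from 0) in the control, NE and brimonidine libraries, with 1 point per library and the group mean ± SD as bars. The 7 brimonidine libraries lie above all 7 NE libraries for Il34, at 3.37 to 4.87 against 2.16 to 3.14, and control 2 lies far below the others for Tyrobp, at 157.4.

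All 10 genes passed the low-value filter of 1 FPKM in at least 3 libraries in each comparison. A gene was called when its adjusted p was below 0.05 (limma on log2(FPKM + 1), adjusted over all genes tested) and its log2 fold change was at least 1 in size. None of the 10 was called in NE against control, where 5.76% of 15950 genes were called. At an adjusted p below 0.05 with no minimum fold change, 1 gene (Csf1r) was higher after NE, as were 2.12% of all genes (2247 genes in either direction). At an unadjusted p below 0.05 there were 3 (Csf1r, Cd68 and Aif1), all higher, as were 10.6% of all genes (5252 genes in either direction). Every NE library lay above every control library for 2 genes (Csf1r and Cd68), against 3.24% of all genes. The fold change was above 0 for 9 of 10 genes, against 43.9%, with a median of 0.16 against -0.04 over all genes. Without control 2 it was above 0 for all 10, with a median of 0.17 against -0.01. None of the 10 then kept an adjusted p below 0.05, against 1040 of 15431 genes (6.74%) in either direction.

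None of the 10 genes was called in brimonidine against NE, where the share called was 0.0% of 15707 genes, and none had an adjusted p below 0.05, which a single gene (0.00637%) reached. At an unadjusted p below 0.05 there were 2 (Il34 and Adgre1), both higher in the brimonidine group, as were 3.3% of all genes (906 genes in either direction). The groups did not overlap for Il34 alone, which was higher. Non-overlap in this direction held for 16 genes in all (0.102%). The fold change was above 0 for 8 of 10 genes, against 57.7%, with a median of 0.07 against 0.01. In brimonidine against control none was called, against 5.73% of 15947 genes. An adjusted p below 0.05 was reached by 3 genes (Csf1r, Adgre1 and Cd163), all higher in the brimonidine group, as were 3.47% of all genes (2518 genes in either direction). The same 3 lay wholly above the controls, as did 5.07% of all genes. The fold change was above 0 for 9 of 10 genes, against 45.8%, with a median of 0.26 against -0.03. An unadjusted p below 0.05 was reached by 5, adding Cd68 and Trem2, all higher, as were 13.6% of all genes (5672 genes in either direction). Without control 2, 4 genes (Adgre1, Cd163, Il34 and Trem2) had an adjusted p below 0.05, against 9.48% of all genes in either direction. The control libraries are shared by the comparisons with control and the NE libraries by the comparisons with NE, so these counts are not independent of each other.

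**Figure D2:**
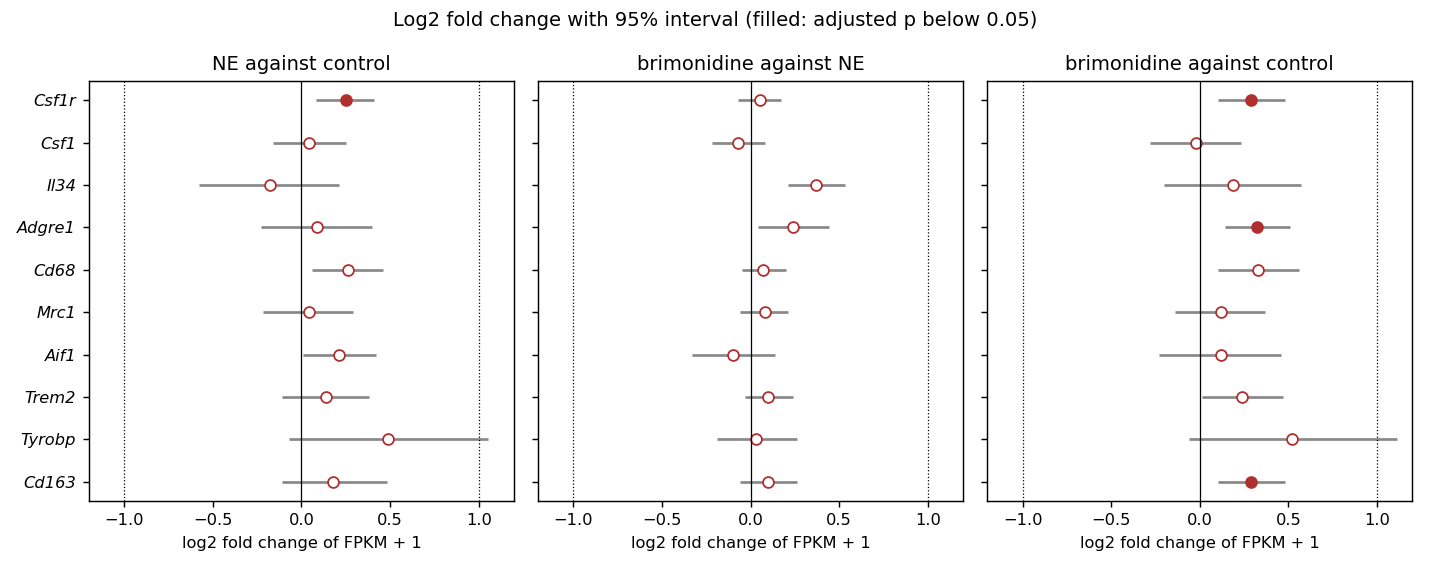
Log2 fold change of FPKM + 1 for the 10 genes in the 3 comparisons, with the 95% interval as a bar, filled where the adjusted p was below 0.05 (limma) and with dotted lines at the fold change required for a call. No point reaches a dotted line, Csf1r, Adgre1 and Cd163 are filled in brimonidine against control, and the interval of Tyrobp is the widest wherever controls are used.

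Csf1r lies on chromosome 18 (61105572 to 61132149, plus strand, mm10) and overlaps Hmgxb3 on the other strand, which stayed between 3.57 and 6.82 FPKM. Csf1r was measured at 34.1, 34.3 and 36.7 FPKM in controls 1 to 3. In the NE group it ranged from 38.0 to 45.7 with a median of 41.5, and in the brimonidine group from 38.5 to 49.7 with a median of 42.1. All 14 exposed libraries were above all controls, and the exposed groups overlapped each other almost entirely. The log2 fold change was 0.25 (SE 0.07, 95% interval 0.08 to 0.41) in NE against control, with an adjusted p of 0.0497 by limma. This adjusted p lay next to the threshold. It passed 0.05 in only 1 of the 10 fits that left out a library, and ranged over them from 0.0267 to 0.109 (without control 2, where the fold change was 0.23). Over all alternatives it ranged from 0.00563 with array weights to 0.487 with the replicate block. Brimonidine against control gave 0.29 (0.10 to 0.48, adjusted p = 0.0428, and 0.28 with an adjusted p of 0.0933 without control 2), and brimonidine against NE gave 0.05 (-0.07 to 0.17, adjusted p = 0.956). As these are bulk tissue libraries, more cells that express a gene and more RNA per cell cannot be told apart, here or for any gene below.

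Il34 (chromosome 8, 110741829 to 110805924, minus strand) was the gene of the list that differed most clearly between the exposed groups. It was measured at 2.90, 5.38 and 2.29 FPKM in controls 1 to 3. The NE libraries gave 2.16 to 3.14 with a median of 3.00, and the brimonidine libraries 3.37 to 4.87 with a median of 3.88. The lowest brimonidine library was thus above the highest NE library. The log2 fold change in brimonidine against NE was 0.37 (SE 0.07, 95% interval 0.21 to 0.53). The exact two-sided permutation p was 0.00058, the smallest that 7 against 7 allows, whereas limma gave an unadjusted p of 0.000151 and an adjusted p of 0.198 over all genes. The adjusted p stayed above 0.05 in every alternative, from 0.133 with array weights to 1.0 with all 17 libraries in the model, while the fold change stayed between 0.33 and 0.40 in the 14 fits that left out a library. The level was low, at 75 to 106 fragments in the NE libraries and 118 to 174 in the brimonidine libraries. Counting error alone was 10.2% and 8.54% of the level, against a spread between libraries of 12.8% and 12.0%. A pair of antisense genes overlap Il34, Gm15895 and Gm15894, and neither exceeded 0.189 FPKM in any library.

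The comparisons of Il34 with the controls rested on control 2, which had the highest level of all 17 libraries and also the highest summed central neuron level. The part of those neuron genes in the Il34 value was not tested. NE against control gave -0.18 (-0.58 to 0.21, adjusted p = 0.488), and 0.09 without control 2 (adjusted p = 0.728). Brimonidine against control gave 0.19 (-0.20 to 0.57, adjusted p = 0.46). That became 0.46 without control 2 (adjusted p = 0.026) and -0.01 without control 3 (adjusted p = 0.96).

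Csf1 (chromosome 3, 107741048 to 107760469, minus strand), the other ligand, was measured at 9.60, 12.7 and 11.3 FPKM in controls 1 to 3. It ranged from 10.4 to 12.6 in the NE group with a median of 11.4, and from 9.72 to 13.7 in the brimonidine group with a median of 10.4. The 3 groups overlapped throughout. Log2 fold changes were 0.04 (-0.16 to 0.25) in NE against control, -0.07 (-0.22 to 0.08) in brimonidine against NE and -0.02 (-0.28 to 0.23) in brimonidine against control, with adjusted p values of 0.762, 0.936 and 0.896 by limma. Without control 2 the comparisons with control gave 0.13 and 0.06. The sign in both comparisons with control turned when single libraries were left out, and in brimonidine against control also with quantile normalization (0.03) and median ratio scaling (0.07). Il34 amounted to 17.2% to 30.2% of Csf1 in the NE libraries (median 25.2%) and to 28.4% to 48.9% in the brimonidine libraries (median 35.7%). In the controls it was 20.2% to 42.2%, highest in control 2.

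Adgre1 (chromosome 17, 57358686 to 57483529, plus strand) was measured at 12.6, 14.9 and 13.6 FPKM in controls 1 to 3. It ranged from 10.1 to 17.5 in the NE group with a median of 15.1 and from 15.9 to 19.1 in the brimonidine group with a median of 17.1. The brimonidine libraries lay above all controls and overlapped the upper NE libraries, while NE 6 was the lowest library of the series. Brimonidine against control gave a log2 fold change of 0.32 (0.14 to 0.51, adjusted p = 0.0245 by limma). It passed 0.05 in 8 of the 10 fits without a library (adjusted p = 0.0171 without control 2, and 0.0569 without control 3 as the highest). Brimonidine against NE gave 0.24 (0.04 to 0.44, adjusted p = 0.822), which was lowest without NE 6, at 0.16. NE against control gave 0.09 (-0.23 to 0.40, adjusted p = 0.7), and 0.14 without control 2.

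Cd68 (chromosome 11, 69664213 to 69666153, minus strand) was measured at 61.3, 60.2 and 49.7 FPKM in controls 1 to 3, at 61.5 to 72.3 in the NE group (median 68.8) and at 60.8 to 77.8 in the brimonidine group (median 72.6). Every NE library was above the controls, although the lowest, NE 1, exceeded control 1 only slightly. The log2 fold change was 0.26 in NE against control (0.06 to 0.46, adjusted p = 0.0776) and 0.33 in brimonidine against control (0.10 to 0.56, adjusted p = 0.0512), so neither passed. Control 3 was the lowest library, and without it they were 0.16 and 0.24. Without control 2 they were 0.30 (adjusted p = 0.088) and 0.37 (adjusted p = 0.0614). Brimonidine against NE gave 0.07 (-0.05 to 0.20, adjusted p = 0.903).

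Cd163 (chromosome 6, 124304656 to 124330527, plus strand), the lowest of the 10 genes, was measured at 1.68, 2.36 and 2.37 FPKM in controls 1 to 3. It ranged from 1.93 to 3.13 in the NE group (median 2.60) and from 2.67 to 2.87 in the brimonidine group (median 2.83). The brimonidine libraries were tightly grouped above all controls and inside the NE range. Their spread was 2.46%, less than the counting error of 6.07% that 259 to 285 fragments give, against 18.4% in the NE group. Brimonidine against control gave 0.29 (0.10 to 0.48, adjusted p = 0.0462 by limma), which passed 0.05 in 2 of the 10 fits without a library, with 0.038 without control 2 and 0.0938 without control 1. NE against control gave 0.18 (-0.11 to 0.48, adjusted p = 0.354, and 0.24 without control 2), and brimonidine against NE 0.10 (-0.06 to 0.26, adjusted p = 0.901).

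Mrc1 (chromosome 2, 14229392 to 14332057, plus strand), like Cd163 a gene of resident and perivascular macrophages, was measured at 6.57, 9.21 and 9.86 FPKM in controls 1 to 3, at 7.64 to 9.79 in the NE group (median 8.76) and at 8.26 to 10.8 in the brimonidine group (median 9.29). The groups overlapped. Log2 fold changes were 0.04 (-0.22 to 0.29) in NE against control, 0.08 (-0.06 to 0.21) in brimonidine against NE and 0.12 (-0.14 to 0.37) in brimonidine against control, with adjusted p values of 0.841, 0.904 and 0.5. Without control 2 the comparisons with control gave 0.10 and 0.17.

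Aif1 (chromosome 17, 35170991 to 35176068, minus strand) was measured at 5.87, 5.46 and 5.52 FPKM in controls 1 to 3, at 5.6 to 7.74 in the NE group (median 7.00) and at 4.56 to 8.47 in the brimonidine group (median 5.62). The brimonidine group was the most variable, with a spread of 23.0% against a counting error of 7.65%, and held both the highest and the lowest library of the series. Log2 fold changes were 0.21 (0.01 to 0.42, adjusted p = 0.141) in NE against control, -0.10 (-0.33 to 0.14, adjusted p = 0.945) in brimonidine against NE and 0.12 (-0.23 to 0.46, adjusted p = 0.619) in brimonidine against control. Without control 2 the comparisons with control gave 0.20 and 0.10.

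Trem2 (chromosome 17, 48346401 to 48354147, plus strand), the lipid-sensing receptor, was measured at 2.87, 4.16 and 3.00 FPKM in controls 1 to 3, at 3.06 to 4.44 in the NE group (median 3.76) and at 3.60 to 4.66 in the brimonidine group (median 4.17). Control 2 was within the range of the exposed groups and the other 2 controls were below it. The log2 fold change was 0.14 (-0.11 to 0.38, adjusted p = 0.406) in NE against control and 0.24 (0.01 to 0.47, adjusted p = 0.129) in brimonidine against control. Without control 2 these were 0.27 (adjusted p = 0.159) and 0.37 (adjusted p = 0.0268). Brimonidine against NE gave 0.10 (-0.03 to 0.24, adjusted p = 0.895).

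Tyrobp (chromosome 7, 30413760 to 30417585, plus strand), the adaptor that signals for Trem2, is also transcribed in neutrophils and was compared with a list of neutrophil genes. It was measured at 376.5, 157.4 and 371.0 FPKM in controls 1 to 3, at 350.2 to 507.7 in the NE group (median 383.3) and at 339.0 to 527.7 in the brimonidine group (median 375.8). Control 2 was the lowest library and NE 6, brimonidine 2 and brimonidine 3 the highest. The same 3 libraries had the highest summed level of the 10 neutrophil genes among the 14 exposed libraries, at 65061, 58245 and 50906 FPKM, with 39731 to 45208 in the other 11. Tyrobp per 1000 FPKM of neutrophil genes was 7.80 to 9.67 in the NE group, 8.37 to 9.44 in the brimonidine group, 8.60 and 8.04 in controls 1 and 3, and 16.0 in control 2. For Csf1r the order was different. NE 6 and brimonidine 2 had the lowest Csf1r levels of the exposed libraries (38.0 and 38.5 FPKM), and brimonidine 1, with the lowest Tyrobp, had the highest (49.7 FPKM). The log2 fold change of Tyrobp was 0.49 (-0.07 to 1.05, adjusted p = 0.201) in NE against control and 0.52 (-0.06 to 1.11, adjusted p = 0.179) in brimonidine against control. These were 0.08 (adjusted p = 0.811) and 0.11 (adjusted p = 0.718) without control 2. Brimonidine against NE gave 0.03 (-0.19 to 0.26, adjusted p = 0.984).

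**Figure D3:**
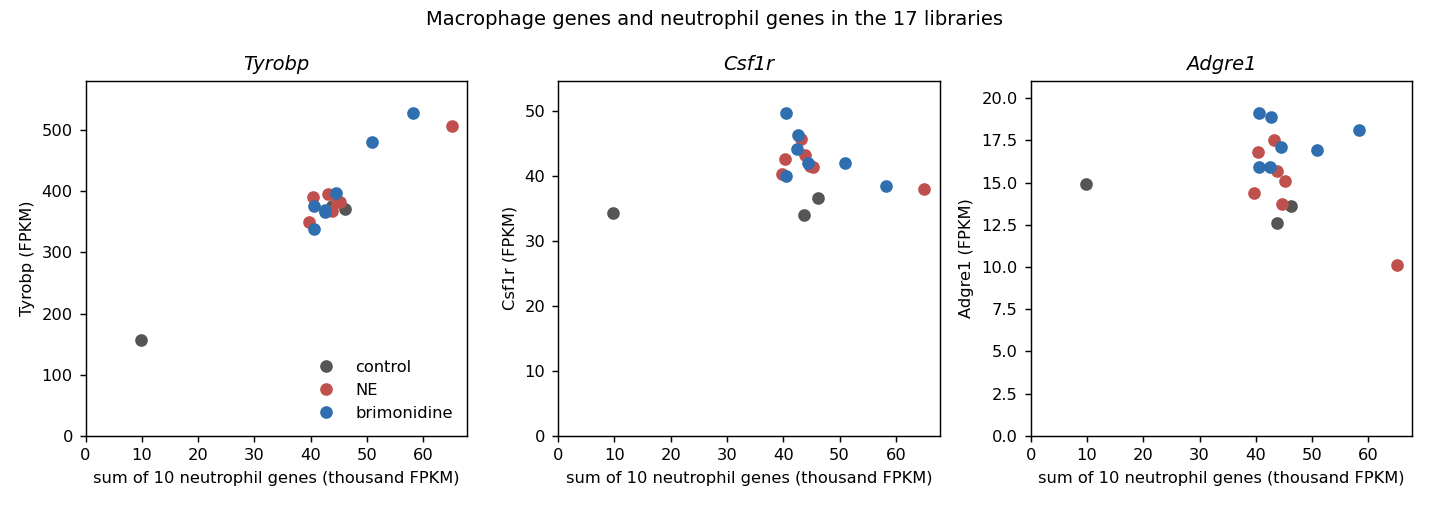
FPKM of Tyrobp, Csf1r and Adgre1 (vertical axes from 0) against the summed FPKM of 10 neutrophil genes in units of 1000 FPKM, with 1 point per library colored by group. Tyrobp is lowest in control 2, where the sum is 9819, and 480.7 to 527.7 in the 3 libraries with the highest sums, whereas Csf1r in those 3 is 38.0 to 42.1 and Adgre1 ranges from 10.1 in NE 6 to 18.1 in brimonidine 2.

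Likeness to Csf1r was measured as Pearson's r of log2(FPKM + 1) over the 14 exposed libraries after the group mean was removed, among 14816 genes. The points share library depth and tissue composition, and the values are descriptions. Among the most similar genes were Gpc1 (0.89), which encodes a cell surface proteoglycan, Casz1 (0.89), Slc19a2 (0.87) and Ephb3 (0.87). Within the list, r was 0.70 for Csf1, 0.63 for Adgre1, 0.61 for Mrc1, 0.38 for Cd68, 0.30 for Cd163, 0.09 for Trem2, 0.02 for Il34, -0.18 for Aif1 and -0.67 for Tyrobp. Likeness to Csf1r thus differed between the genes of the list, and their likeness to each other was not measured. The part of counting error, larger for genes with low levels, in these values was not tested. After median ratio scaling the value for Tyrobp was -0.40 and that for Adgre1 0.41.

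The other genes of these cells and of the pathway were taken from lists, and their counts are to be read beside those over all genes. An adjusted p below 0.05 was reached by 2247 of 15950 genes in NE against control, 338 of them higher (2.12% of all genes). In brimonidine against NE a single gene of 15707 reached it. In brimonidine against control 2518 of 15947 genes reached it, 553 of them higher (3.47% of all genes). Of 30 further macrophage genes, 24 were tested in NE against control, where 3 had an adjusted p below 0.05, all higher, and the median log2 fold change was 0.20 (0.18 without control 2) against -0.04 over all genes. Mpeg1, which encodes the pore-forming protein perforin-2, was measured at 55.2 to 87.6 FPKM in the controls and 93.9 to 132.4 in the NE group (log2 fold change 0.71, adjusted p = 0.0099, and 0.55 with an adjusted p of 0.0404 without control 2). The high-affinity IgG receptor gene Fcgr1 (0.65, adjusted p = 0.0134) and the cathepsin S gene Ctss (0.45, adjusted p = 0.0255) were the other 2, and without control 2 they were at 0.46 and 0.37 (adjusted p = 0.0533 and 0.067). In brimonidine against NE, 25 were tested, none had an adjusted p below 0.05, and the median was 0.03. The smallest p belonged to Cd14, the lipopolysaccharide coreceptor, at 58.7 to 133.6 FPKM in the NE group and 35.9 to 78.7 in the brimonidine group (-0.71, adjusted p = 0.496). In brimonidine against control 5 of 24 were higher at an adjusted p below 0.05, as were 3.47% of all genes. The 5 were Mpeg1, Fcgr1, Ctss, the heme oxygenase gene Hmox1 and the scavenger receptor gene Msr1. The list median was 0.21 (0.29 without control 2). Without control 2, Mpeg1, Fcgr1 and Ctss still passed there, and Hmox1 (0.38 against 0.49 with it) and Msr1 (0.31 against 0.44) did not, with adjusted p values of 0.0878 and 0.127.

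Among 27 genes of CSF1 receptor signaling and myeloid transcription, all tested, 4 were higher and 1 lower in NE against control at an adjusted p below 0.05. Over all genes 2.12% were higher. Those higher included the adaptor gene Shc1 (0.32, adjusted p = 0.0373), the phospholipase gene Plcg2 (0.67, adjusted p = 0.0432) and the lipid phosphatase gene Inpp5d (0.52, adjusted p = 0.04), the last named after its values were seen. Ptprz1, a receptor phosphatase that also binds IL-34, was lower (4.81 to 12.8 FPKM in the controls, 1.37 to 2.37 in the NE group, -1.51, adjusted p = 0.00145), and the part of the central glia genes, higher in the controls, was not tested. Without control 2 the fold changes of Shc1, Plcg2 and Inpp5d were 0.19, 0.35 and 0.29 (adjusted p = 0.0862, 0.0972 and 0.122), and that of Ptprz1 was -1.14 (adjusted p = 0.000939). In brimonidine against NE none passed. Cebpa, a myeloid transcription factor, was at 17.1 to 19.9 FPKM in the NE group and 20.4 to 27.6 in the brimonidine group without overlap (0.26, adjusted p = 0.3). In brimonidine against control 5 were higher (Shc1, Plcg2, Inpp5d and Irf8 among them), with 3.47% of all genes higher. The 2 lower were Ptprz1 and the kinase gene Fyn, named after its values were seen. Without control 2 the fold changes of Shc1, Plcg2 and Inpp5d in this comparison were 0.18, 0.37 and 0.32 (adjusted p = 0.0686, 0.0926 and 0.06), while Irf8 (0.69, adjusted p = 0.0429), Ptprz1 (-1.10) and Fyn (-0.29, against -0.58 with control 2) still passed. Of 11 other colony-stimulating factor family genes, 9 were tested, and Kit (-0.61, adjusted p = 0.00781) and its ligand gene Kitl (-0.80, adjusted p = 0.0159) were lower in NE against control. Without control 2 they were -0.46 (adjusted p = 0.0301) and -0.48 (adjusted p = 0.00977). In brimonidine against NE none passed. At an unadjusted p below 0.05 there were 3 higher and 1 lower, against 906 of 15707 genes, 519 of them higher. Flt3l, the ligand gene of the progenitor receptor FLT3, was at 1.77 to 2.31 FPKM in the NE group and 2.36 to 2.96 in the brimonidine group without overlap (0.17, adjusted p = 0.627). Csf3, the granulocyte factor, was at 3.55 to 10.1 FPKM in the NE group and 2.10 to 5.34 in the brimonidine group (-0.66, adjusted p = 0.603), and Kit was lower in brimonidine against control (-0.62, adjusted p = 0.00555, and -0.47 without control 2).

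Receptors and kinases that signal with Tyrobp (15 of 16 tested) had 2 genes higher at an adjusted p below 0.05 in NE against control, Syk (0.42, adjusted p = 0.0472, and 0.23 with an adjusted p of 0.141 without control 2) and Plcg2, with a median of 0.40 that was 0.03 without control 2. None passed in brimonidine against NE (median 0.07), and Syk and Plcg2 were higher in brimonidine against control (median 0.53, and 0.14 without control 2, where their adjusted p values were 0.0554 and 0.0926). Of 16 scavenger and heme handling genes, none of 13 passed in NE against control (median 0.29, and 0.17 without control 2), none of 14 in brimonidine against NE (0.03) and 2 of 13 (Hmox1 and Msr1) in brimonidine against control (0.25, and 0.22 without control 2). Of 12 osteoclast genes 11 were tested, and Nfatc1, the osteoclast transcription factor, was higher in NE against control (0.26, adjusted p = 0.035, and 0.19 with an adjusted p of 0.112 without control 2). None passed in brimonidine against NE, and Nfatc1 and the proton pump gene Tcirg1 were higher in brimonidine against control (0.34 and 0.43, and 0.27 and 0.24 without control 2, with adjusted p values of 0.0708 and 0.0721).

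Markers of other cells were counted in the same way, beside the same shares over all genes. Of 13 monocyte genes, 1 was higher (Fn1, 0.53, adjusted p = 0.0482) and 1 lower (Nr4a1, -1.39, adjusted p = 0.0127, called) in NE against control, and without control 2 they were at 0.40 and -1.0 (adjusted p = 0.21 and 0.0595). The monocyte median was 0.70, and 0.21 without control 2. In brimonidine against NE none passed. At an unadjusted p below 0.05, 4 were higher, as were 3.3% of all genes. Among the 4 were the coagulation factor gene F13a1 (0.28, adjusted p = 0.521) and the chitinase-like gene Chil3 (0.35, adjusted p = 0.521). In brimonidine against control 5 of 13 monocyte genes were higher (Fn1, Ccr2, F13a1, Chil3 and Ms4a6c) and Nr4a1 was lower, with 3.47% of all genes higher. Nr4a1 was called there (-1.61, adjusted p = 0.00351) and also without control 2 (-1.21, adjusted p = 0.00681). F13a1 (1.07) and Chil3 (1.15) were called, but at 0.64 and 0.59 without control 2 they were under the required fold change. Fn1 (0.76) passed there also without control 2 (0.63, adjusted p = 0.00607). Without control 2 Ccr2 and Ms4a6c were at 0.49 and 0.40, against 0.99 and 0.79 with it, and both still had an adjusted p below 0.05. Of 10 microglia genes 9 were tested, and none passed in NE against control or brimonidine against NE, with P2ry12 at 2.94 to 5.29 FPKM and Sall1 at 0.566 to 2.31 over the 17 libraries. No neutrophil gene of 10 passed in any comparison, and the neutrophil median in NE against control was 0.73, and 0.05 without control 2. No B lineage, erythroid or cochlear epithelium gene passed in any comparison. All 8 central neuron genes and 3 of 7 central glia genes (Olig1, Mog and Gfap) were lower in NE against control, 8 and 5 in brimonidine against control, and none of the 4 neuron and 7 glia genes tested passed in brimonidine against NE. The part of these cell markers in the values of the 10 genes was not tested.

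**Figure D4:**
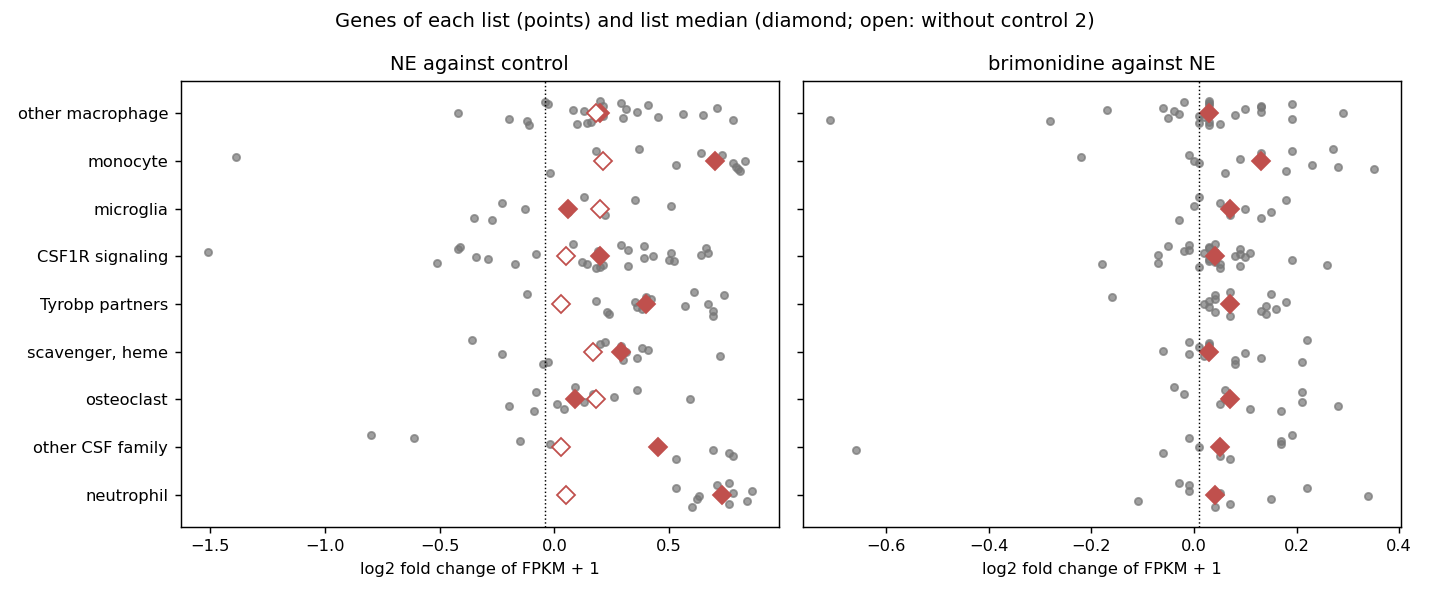
Log2 fold change of FPKM + 1 of each gene (points) in 9 lists and the list median (filled diamond), in NE against control on the left and brimonidine against NE on the right, with the median of all genes as a dotted line and the median without control 2 as an open diamond. The monocyte and neutrophil medians in NE against control, 0.70 and 0.73, move to 0.21 and 0.05 without control 2, whereas that of the other macrophage genes stays at 0.18, and all 9 medians lie close to 0 in brimonidine against NE.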

How the data were processed

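Stranded poly(A) libraries were made from total RNA of the cochleae of 17 mice and sequenced on an Illumina NovaSeq instrument. According to the submitters' processing notes, reads were handled with Trimmomatic, HISAT2, HTSeq and Cufflinks on mm10, and versions and annotation are not given in the sources used here. The deposited values are FPKM per gene, computed by the authors. The sources name the tissue as cochlea, cochlear cells or basilar membrane, and the noise as broadband or without that word. The 10 genes and all gene lists were chosen with earlier results of these data known. Groups came from the sample labels, and where a symbol had more than 1 gene the most abundant was used.

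Log2(FPKM + 1) was tested with limma 3.58.1 (lmFit, then eBayes with trend, in R 4.3.3) for genes that reached 1 FPKM in 3 or more libraries of a comparison. Each model held the 2 groups of that comparison alone, and p-values were adjusted by the Benjamini-Hochberg method over all genes tested. Fold changes on this scale understate changes of low genes. Intervals are 95% intervals. Exact permutation tests were two-sided. The fit was tested on simulated data. Named genes were the 10 members, the 3 genes of each list with the smallest p in NE against control and the 2 in brimonidine against NE, from which the text gives a part, and the 5 genes most like Csf1r. Some results that this rule names are not reported here. Fragments were recovered from FPKM and merged exon lengths of GENCODE M21: within 0.02, 91.0% to 91.6% of values came out whole. Csf1r and Adgre1 did not, so their fragments are approximate and not printed. Libraries held 14457734 to 16080796 (control), 15769235 to 18288854 (NE) and 16624437 to 18224926 (brimonidine) fragments. Counting error is the Poisson error of these fragments and covers counting only. No libraries were duplicates. Alternatives were another pseudocount, no filter, 3 scalings, 1 model for all libraries, array weights, robust eBayes, a replicate block, each library left out and, added after seeing the data, limma voom on the recovered fragments. The gene lists covered macrophages, monocytes, microglia, CSF1 receptor signaling, Tyrobp partners, scavenger and heme handling genes, osteoclasts, other colony-stimulating factors, neutrophils, B lineage, erythroid cells, central neurons, central glia and cochlear epithelium, and some genes are in more than 1 list.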

Additional observations from a re-analysis of the deposited data

Results flagged for a closer look

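Tyrobp in NE 6, at 507.7 FPKM, stood apart from the other 6 NE libraries (350.2 to 395.4 FPKM). Its gap to the nearest library was 0.713 of the group's range, above Dixon's 95% critical value for 7 samples. Each of the 10 genes was examined in the NE and brimonidine groups, which gives 20 groups, and chance alone puts about 1 in 20 beyond this limit. NE 6 also had the highest summed neutrophil level of all libraries (65061 FPKM), and its part in the Tyrobp value was not tested. Without NE 6 the log2 fold change of Tyrobp in brimonidine against NE was the highest of the fits that left out a library, at 0.09.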

How the results depend on the processing

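None of the 10 genes was called under any alternative that kept both thresholds. With an adjusted p below 0.05 and no minimum fold change, 1, 0 and 3 were called in NE against control, brimonidine against NE and brimonidine against control, and with an unadjusted p below 0.05, 3, 2 and 5. Over all genes, the calls in NE against control were 918, with 2247 and 5252 under those rules, 0 with the replicate block and 368 to 934 when a library was left out. In brimonidine against NE they were 0, with 1 with array weights, 1 and 906 under those rules, and 0 to 0 when a library was left out. In brimonidine against control they were 913, with 2518 and 5672 under those rules, 236 with the replicate block and 468 to 1080 when a library was left out. Among the fits that left out a library, the lowest counts in the comparisons with control came without control 2. Directions turned for several small fold changes. Il34 was among them, at -0.18 in NE against control and 0.19 in brimonidine against control in the main fit. In NE against control, Il34 was 0.03 with quantile normalization and 0.17 with array weights and ranged from -0.38 to 0.09 when a library was left out, Mrc1 was -0.10 with array weights and ranged from -0.12 to 0.14, and Csf1 ranged from -0.05 to 0.13. In brimonidine against NE, Tyrobp ranged from -0.03 (without brimonidine 2) and -0.01 (without brimonidine 3) to 0.09. In brimonidine against control, Csf1 was 0.07 with median ratio scaling, 0.03 with quantile normalization and 0.01 with the replicate block and ranged from -0.12 to 0.06, Il34 ranged from -0.01 to 0.46, and Mrc1 was -0.02 with array weights and ranged from -0.04 to 0.22. The cause was not tested. Quantile normalization moved the median of all genes by 0.107 and 0.104 in the comparisons with control, and median ratio scaling by 0.096 and 0.083. The median was then above 0, at 0.063 and 0.072 and at 0.052 and 0.051, against -0.044 and -0.031 in the main fit. The medians and shares above 0 given in the Results come from the main scaling. Replicate numbers did not pair the libraries: same-numbered libraries correlated at -0.22 to 0.02, -0.15 to 0.08 and -0.19 to 0.08, and 1 of 3, 0 of 7 and 0 of 3 pairs were closest to their own number. With the replicate block, the adjusted p of Csf1r in NE against control was 0.487, and no member passed. In the comparisons with control most replicate numbers occur in a single group. That model therefore has few libraries left to estimate the spread from, and its loss of calls cannot be read as a result about the genes. Depth limits Il34 most, and then Aif1 and Cd163. The smallest change that could be detected was not computed, and the intervals give the uncertainty of each fold change.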
